A study of Mus musculus with 4 samples.

Results

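The HMGA, LIN28 and IGF2BP oncofetal genes are 7 genes of the fetal liver programme around the let-7 microRNAs, namely Hmga1, Hmga2, Lin28b, Igf2bp1, Igf2bp2, Igf2bp3 and Gpc3. They were found by symbol among 52630 gene identifiers of the transcript table. Hmga2 was picked for its rise in the knockdown, so its difference between the groups is a description and carries no test, and the other 6 were taken by name. Of the 7 members, 6 passed a filter at a mean of 1 TPM over the 4 libraries, as did 13509 genes in all, and Gpc3 did not.

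AML12 cells are hepatocytes of a non-tumour mouse line, founded from animals with a human TGF-alpha transgene, and both groups share that background and a medium with insulin supplement and dexamethasone. Cells received 200 µl of concentrated lentivirus with a control short hairpin RNA (shCtrl, 2 libraries) or a hairpin against Topors (shTopors, 2 libraries), and were collected 5 days later. Topors encodes a nuclear E3 ligase for ubiquitin and SUMO, and the comparison asks how transcript levels differ when it is reduced. Total RNA, cleared of ribosomal RNA, went into strand-specific libraries, and each value is a TPM, a level per transcript length that has the same total in each library, to rounding, and keeps no record of depth.

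Topors itself had 21.9 and 29.2 TPM (controls) against 4.31 and 4.65 TPM (knockdown), so both knockdown libraries were low. The labels do not say whether the 2 libraries of a group are separate cultures. The p-values therefore cover the spread between these libraries alone, which may be technical. Of the hepatocyte markers, Ttr, the transthyretin gene, was listed at 1119, 2168, 195 and 410 TPM in shCtrl 1, shCtrl 2, shTopors 1 and shTopors 2, and Hnf4a, a hepatocyte transcription factor, at 158, 156, 179 and 95.3 TPM in the same order. Alb, the albumin gene, was at 118, 271, 4.15 and 402 TPM, and Cps1, a urea cycle enzyme of mature hepatocytes, stayed at or below 0.536 TPM. Summed markers of stellate cells (10 genes), endothelium (7) and leukocytes (8) stayed at or below 1.04, 0.227 and 1.96 TPM in every library. The knockdown libraries lay further apart than the controls, and 10.8% of tested genes were at least 2-fold apart between them, against 2.38% between the controls.

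The let-7 microRNAs accumulate as cells differentiate and repress mRNAs that carry a match to their seed, and LIN28 proteins bind let-7 precursors and block their maturation. HMGA1 and HMGA2 are small chromatin proteins that bend AT-rich DNA, and the IGF2BP proteins bind and stabilise mRNAs, in part through the m6A mark. GPC3, a glypican, carries heparan sulfate at the surface of fetal hepatocytes. In liver these genes are known as high in the fetus, low in the adult and often high again in hepatocellular carcinoma.

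The mature let-7 sequences are shown because the whole family reads its targets through a single seed. In RefSeq's tables of GRCm38.p6, 9 distinct mature forms from 11 loci shared the same bases 2 to 8. The forms below belong to the let-7 hairpin genes with the highest levels here, with the seed in capitals.
let-7f-5p: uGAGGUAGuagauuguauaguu
let-7e-5p: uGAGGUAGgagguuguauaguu
let-7b-5p: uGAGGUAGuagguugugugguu
let-7c-5p: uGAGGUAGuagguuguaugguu

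The complement of that seed, CTACCTC, was searched on the sense strand in the annotated 3' UTRs of GENCODE M21 (mm10), and a match followed by A, CTACCTCA, was counted as 8 bases long. The 7 members held 15 such matches, 7 of them of 8 bases. Hmga2, Igf2bp1 and Lin28b had 4 each, Hmga1, Igf2bp2 and Igf2bp3 had 1 each and Gpc3 had none. Of 11036 tested genes with an annotated 3' UTR, 11.1% had at least 1 match and only 10 had 4 or more, and Hmga2, Igf2bp1 and Lin28b are 3 of those 10. The members were chosen as genes around let-7, so their matches are no separate result. The longest 3' UTRs of Igf2bp1, Lin28b and Hmga2 also exceeded those of 98.1%, 94.0% and 84.4% of these tested genes. A match is a description of the letters and does not show that let-7 acts there.

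The sites of Hmga2 are shown because it is the member with the largest difference, with the match in capitals and up to 15 upstream bases. They lie on the minus strand of mm10 at chr10:120364224-120364246, chr10:120362987-120363009, chr10:120362549-120362571 and chr10:120361691-120361713, in this order.
Hmga2 site 1: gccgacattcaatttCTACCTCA
Hmga2 site 2: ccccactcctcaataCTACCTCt
Hmga2 site 3: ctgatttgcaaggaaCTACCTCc
Hmga2 site 4: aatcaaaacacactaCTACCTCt

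For the other members with a match, the site nearest the stop codon is shown for comparison with Hmga2. They lie at chr17:27563277-27563299 on the plus strand (Hmga1) and on the minus strand at chr10:45381022-45381044 (Lin28b), chr11:95961778-95961800 (Igf2bp1), chr16:22059473-22059495 (Igf2bp2) and chr6:49086787-49086809 (Igf2bp3).
Hmga1 site 1: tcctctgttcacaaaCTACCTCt
Lin28b site 1: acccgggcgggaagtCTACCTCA
Igf2bp1 site 1: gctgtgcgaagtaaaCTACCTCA
Igf2bp2 site 1: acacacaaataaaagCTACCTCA
Igf2bp3 site 1: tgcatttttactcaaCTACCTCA

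**Figure D1:**
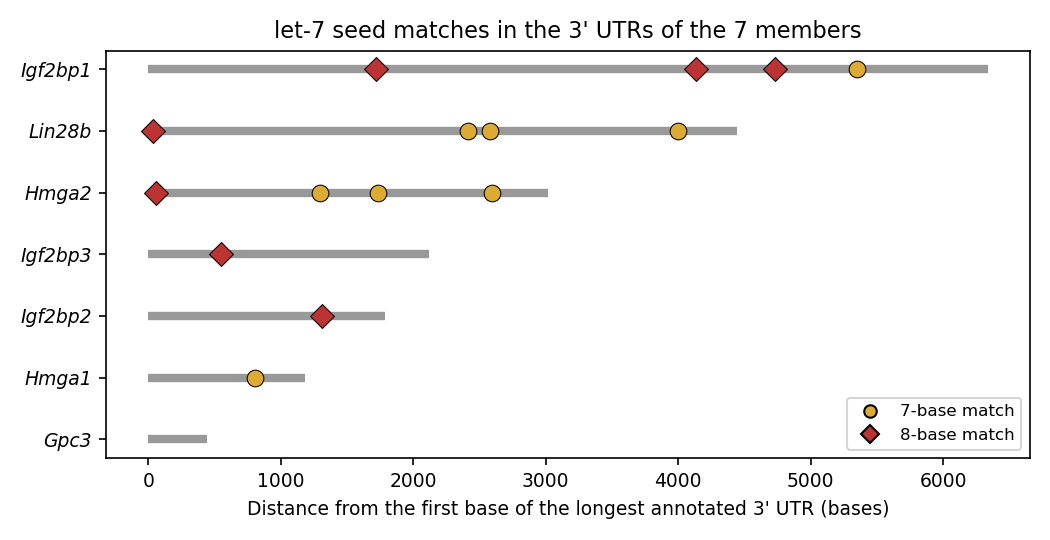
Each grey bar is the longest annotated 3' UTR of a member, drawn to scale from its first base (x axis, bases), and each symbol marks a let-7 seed match of 7 bases (circle) or 8 bases (diamond). Igf2bp1 has 3 matches of 8 bases among its 4, Hmga2 and Lin28b have an 8-base match close to the stop codon, and Gpc3 has none.

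Hmga2 (ENSMUSG00000056758, mm10 chr10:120361275-120476469, minus strand) encodes an architectural protein of embryonic and stem cells. It had 36.9 and 26.7 TPM (controls) against 241 and 102 TPM (knockdown). Both knockdown libraries lay above both controls, and shTopors 1 lay above shTopors 2. Its mean was 31.8 ± 7.16 TPM in the controls and 172 ± 98.2 TPM in the knockdown (SD, n = 2), a 5.39-fold difference, and the log2 difference was 2.29 on the log2(TPM + 1) scale. By that difference Hmga2 ranked 13 of 13509 tested genes from the top, which describes the choice of the gene. With 1 library left out the log2 difference ran from 1.67 (without shTopors 1) to 2.90 (without shTopors 2).

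Mir763, a microRNA hairpin gene inside an intron of Hmga2 on the same strand, had 1.69 and 1.54 TPM (controls) against 3.81 and 4.56 TPM (knockdown). Of the knockdown libraries shTopors 2 was the higher for Mir763 and shTopors 1 for Hmga2. Reads of an unspliced Hmga2 transcript would also cover it, so its level is not read as a separate measurement. The antisense genes 1700006J14Rik and 9230105E05Rik, which overlap Hmga2 on the other strand, stayed at or below 0.0402 TPM in every library.

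Hmga1 (ENSMUSG00000046711, mm10 chr17:27556497-27563674, plus strand) encodes the other HMGA protein. It had 32.5 and 26.5 TPM (controls) against 75.7 and 33.2 TPM (knockdown). Only shTopors 1 stood clearly apart, and shTopors 2 lay just above the higher control. The means were 29.5 ± 4.23 and 54.5 ± 30.1 TPM (SD, n = 2), with a log2 difference of 0.76 (SE 0.40) and an adjusted p = 0.422 in limma's test over all genes, which did not pass 0.05. Without shTopors 2 the log2 difference was 1.34 with an adjusted p = 0.0016 in limma, and without shTopors 1 it was 0.17 with an adjusted p = 0.837, so 1 library decides this value. In these fits the lone library of a group is assumed to vary like the other group. Hmga1 shares 102 bases at its end with AI413582 on the other strand, listed at 20.5 to 28.2 TPM, and no source used here states whether counting used the strand.

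The ratio of Hmga2 to Hmga1 within a library was 1.13 in shCtrl 1, 1.01 in shCtrl 2, 3.18 in shTopors 1 and 3.07 in shTopors 2. Both genes were over 2-fold higher in shTopors 1 than in shTopors 2, by 2.36 times for Hmga2 and 2.28 times for Hmga1. The ratio therefore differed little between the knockdown libraries while both levels did. This ratio contains Hmga2, so it describes the choice as well. Since the HMGA genes had the larger differences, the 300-base RefSeq promoter windows around their starts are shown (GRCm38.p6), with GC boxes (GGGCGG on either strand) in capitals. The windows are chr10:120476420-120476719 on the minus strand for Hmga2 and, for the upstream of the 2 windows of Hmga1, chr17:27556324-27556623 on the plus strand.
Hmga2 promoter: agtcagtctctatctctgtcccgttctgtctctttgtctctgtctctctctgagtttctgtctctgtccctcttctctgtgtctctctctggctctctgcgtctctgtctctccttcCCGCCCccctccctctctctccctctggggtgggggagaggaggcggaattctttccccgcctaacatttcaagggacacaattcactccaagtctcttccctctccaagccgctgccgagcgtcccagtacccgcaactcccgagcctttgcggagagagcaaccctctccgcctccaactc
Hmga1 promoter: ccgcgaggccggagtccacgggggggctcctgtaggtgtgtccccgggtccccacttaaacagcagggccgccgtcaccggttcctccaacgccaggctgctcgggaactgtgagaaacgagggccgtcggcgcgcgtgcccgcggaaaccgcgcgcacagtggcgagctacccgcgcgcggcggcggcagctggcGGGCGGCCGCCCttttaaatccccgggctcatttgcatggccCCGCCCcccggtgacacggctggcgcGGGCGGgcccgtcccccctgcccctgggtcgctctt

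The Hmga2 window held 1 GC box at a GC content of 57.7%, with long runs of C and T, and the Hmga1 window held 4 at 74.0%. A GC box occurs in 35.7% of the 32851 windows of the table, whose median GC content is 52.7%. Neither window holds TATAAA on either strand, which 13.6% of all windows hold.

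**Figure D2:**
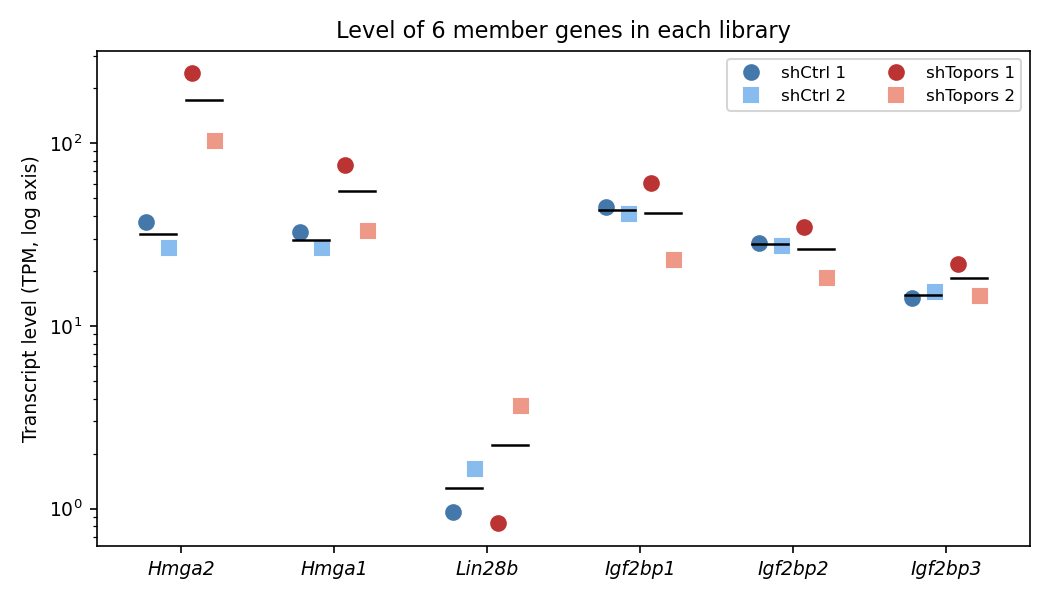
Transcript level of 6 members (x axis) in TPM on a log axis (y axis), with 1 symbol per library and a black line at each group mean (n = 2). Hmga2 is the gene with the widest gap between groups, and for the 3 Igf2bp genes the control libraries lie between or close to the knockdown libraries.

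The 3 Igf2bp genes, which encode paralogous RNA-binding proteins, had group differences smaller than the spread of the knockdown libraries. Igf2bp1 (ENSMUSG00000013415, mm10 chr11:95957163-96005940, minus strand) had 44.6 and 41.0 TPM (controls) against 60.1 and 22.9 TPM (knockdown). The knockdown libraries lay on either side of both controls, at 1.40 and 0.535 times the control mean. The log2 difference was -0.20 (SE 0.43), with an adjusted p = 0.844 in limma. It was -0.87 without shTopors 1 and 0.48 without shTopors 2, so its sign rests on which knockdown library is used.

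Igf2bp2 (ENSMUSG00000033581, mm10 chr16:22059009-22163299, minus strand), the paralogue that is also expressed in adult tissues, had 28.5 and 27.3 TPM (controls) against 34.6 and 18.2 TPM (knockdown). The controls again lay between the knockdown libraries. Its log2 difference was -0.15 (SE 0.34, adjusted p = 0.855 in limma), but scaling by median of ratios turned it to 0.04 and quantile normalization to 0.01. It was -0.59 without shTopors 1 and 0.30 without shTopors 2. Igf2bp3 (ENSMUSG00000029814, mm10 chr6:49085223-49214957, minus strand), an oncofetal paralogue, had 14.2 and 15.3 TPM (controls) against 21.9 and 14.6 TPM (knockdown). Only shTopors 1 lay above the controls, and shTopors 2 lay between them. The log2 difference was 0.26 (SE 0.30, adjusted p = 0.690 in limma), and -0.01 without shTopors 1. Igf2bp3 shares 1529 bases at its end with Malsu1 on the other strand, which was listed at 19.4 to 31.4 TPM.

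In all 4 libraries Igf2bp1 stood above Igf2bp2 and Igf2bp2 above Igf2bp3. Their summed level was 87.3 and 83.6 TPM in the controls, against 117 TPM in shTopors 1 and 55.7 TPM in shTopors 2. Igf2bp1 made up 51.1% and 49.0% of that sum in shCtrl and 51.6% in shTopors 1, but 41.1% in shTopors 2. Igf2bp3 made up 16.3%, 18.3%, 18.8% and 26.2% in the same order, so the mix of paralogues in shTopors 1 was like that of the controls and shTopors 2 stood apart.

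Lin28b (ENSMUSG00000063804, mm10 chr10:45376620-45486395, minus strand), the inhibitor of let-7 maturation, had 0.956 and 1.64 TPM (controls) against 0.833 and 3.63 TPM (knockdown). It was the single tested member that was lower in shTopors 1 than in shTopors 2, and the groups overlapped. The log2 difference was 0.36 (SE 0.47, adjusted p = 0.723 in limma). It was 1.03 with an adjusted p = 0.0491 in limma without shTopors 1, and -0.31 with an adjusted p = 0.610 without shTopors 2. Its paralogue Lin28a was listed at 0 in all 4 libraries. Gpc3 (ENSMUSG00000055653, mm10 chrX:52272426-52613950, minus strand) was listed at 0 in both controls and in shTopors 2 and at 0.0213 TPM in shTopors 1, so the fetal glypican was at or near 0 in these cells.

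In shCtrl the order of levels was Igf2bp1 (42.8 ± 2.57 TPM, SD, n = 2), Hmga2, Hmga1, Igf2bp2 (27.9 ± 0.817), Igf2bp3 (14.8 ± 0.787), Lin28b (1.30 ± 0.483) and Gpc3. Hmga2, Hmga1 and Igf2bp2 were neighbours whose libraries overlapped, and every other pair of neighbours in shCtrl was separated. In shTopors the order was Hmga2, Hmga1, Igf2bp1 (41.5 ± 26.3 TPM), Igf2bp2 (26.4 ± 11.6), Igf2bp3 (18.3 ± 5.14), Lin28b (2.23 ± 1.98) and Gpc3. There the libraries overlapped for each pair of neighbours from Hmga1 to Igf2bp3. Hmga2 had more TPM than 73.7% and 61.8% of tested genes in shCtrl and than 96.6% and 91.8% in shTopors, and Lin28b stood above 2.23% to 22.2% of tested genes.

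None of the 5 tested members other than Hmga2 passed an adjusted p of 0.05 in limma, nor did any have an unadjusted p under 0.05. Topors, the target of the hairpin, did not pass an adjusted p of 0.05 either (adjusted p = 0.0823 in limma). A missing call in this test therefore does not show that a level was unchanged. The call was made for 0.0074% of tested genes as higher and for 0.0296% as lower, and an unadjusted p under 0.05 for 3.98% as higher and 10.7% as lower. The groups did not overlap for Hmga1 and Hmga2, both higher in the knockdown, and 14.6% of tested genes were higher without overlap and 35.2% lower. Since Hmga2 was chosen on this contrast, nothing is read from that count.

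The direction of the difference between the knockdown libraries is given here for the tested members. Of the 6 tested members, 5 were higher in shTopors 1 than in shTopors 2, by 2.62 times for Igf2bp1, 1.90 times for Igf2bp2 and 1.5 times for Igf2bp3 besides both HMGA genes. The same 5 lay above both controls in shTopors 1, whereas in shTopors 2 the tested members above both controls were Hmga2, Hmga1 and Lin28b, and Igf2bp1 and Igf2bp2 lay below both. Over all tested genes, 51.7% were lower in shTopors 1 than in shTopors 2. How many of all tested genes lay above both controls in a knockdown library was not counted. Hmga2, picked for its rise, is among the 5, so nothing is read from these counts. For Igf2bp1, 97.2% of tested genes had a smaller log2 difference of shTopors 1 over shTopors 2, and for Hmga1 and Hmga2 95.9% and 96.4%. Lin28b was at the other end, with 2.52% of tested genes smaller. These ranks compare 2 libraries and have no replicate check.

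**Figure D3:**
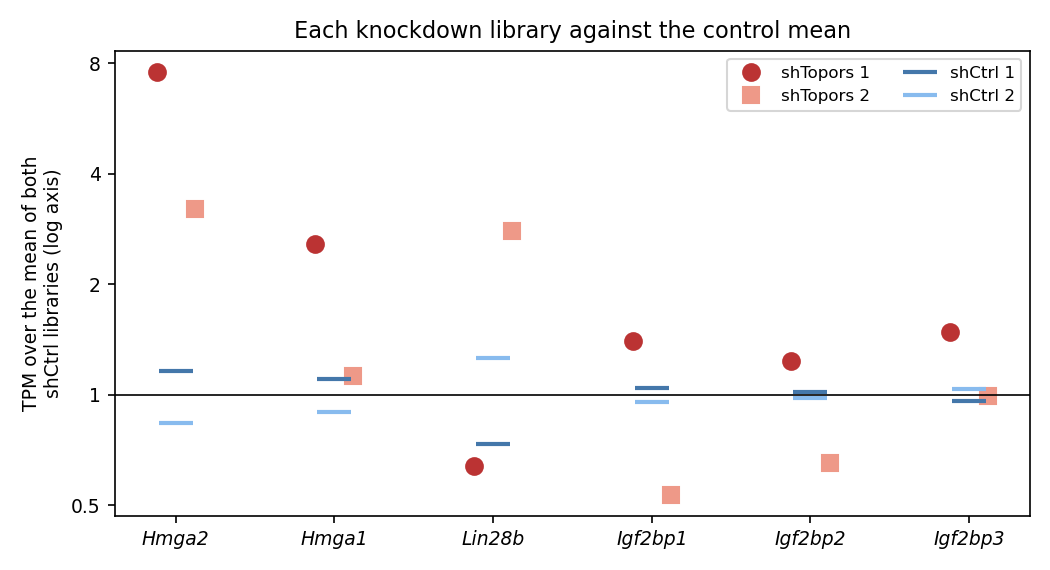
TPM of 6 members in each knockdown library (circles and squares) and each control library (dashes), divided by the mean of both controls, on a log axis. In shTopors 1 the ratio is above 1 for every gene drawn except Lin28b, at 7.58 for Hmga2, and in shTopors 2 it runs from 0.535 for Igf2bp1 to 3.21 for Hmga2.

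Proliferation markers are given here because their summed level differed between the libraries. The 12 listed genes, among them Mcm2, Top2a and Birc5, summed to 163 and 198 TPM in the controls, against 498 TPM in shTopors 1 and 265 TPM in shTopors 2. None passed over all genes in limma, 11 of 12 had an unadjusted p under 0.05 as higher (all but Mcm2), and the median log2 difference was 1.28, or 0.77 without shTopors 1, beside -0.18 for all tested genes. In bulk RNA, more cells of a kind and more RNA per cell cannot be told apart. The part of these markers in the levels of Hmga2, Hmga1 or the Igf2bp genes was not tested. Among epithelial and mesenchymal state markers, no gene passed in limma, 1 of 12 tested had an unadjusted p under 0.05 as higher (S100a4, a calcium-binding protein gene) and 3 as lower (Vim, the vimentin gene, Cdh2, the N-cadherin gene, and Fn1, the fibronectin gene). These 4 were named after their values were seen. Of all tested genes, 3.98% were higher and 10.7% lower at that p-value. The median log2 difference of this list was -0.23, beside -0.18 for all tested genes. Without overlap, 5 of the 12 were lower and 2 higher, beside 35.2% lower and 14.6% higher of all tested genes. Cdh1, an epithelial marker also named after its values were seen, was among the lower, with 171 and 202 TPM (controls) against 126 and 148 TPM (knockdown). Other epithelial markers went the other way. Krt18, a keratin gene, was higher without overlap, with 2069 and 1719 TPM (controls) against 3239 and 2168 TPM (knockdown). Krt8 and Tjp1 had log2 differences of 0.29 and 0.19, and their groups overlapped. Vim had 603 and 555 TPM (controls) against 270.2 and 346 TPM (knockdown), and Fn1 had 769 TPM in both controls, against 183 TPM in shTopors 1 and 542 TPM in shTopors 2.

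The let-7 family was present here only as hairpin genes, since mature microRNAs are too short for these libraries. Of 12 hairpin genes, 6 were tested and none passed in limma. Of the 6, only Mirlet7c-1 had an unadjusted p under 0.05, as lower, beside 10.7% of all tested genes. The summed level was 20.5 and 23.6 TPM in shCtrl and 17.7 and 23.1 TPM in shTopors, so the groups overlapped. Mirlet7f-1, the highest, had 6.37 and 7.51 TPM (controls) against 8.15 and 9.49 TPM (knockdown). Mirlet7c-1, named after its values were seen, had 3.67 and 2.88 TPM (controls), against 0.116 TPM in shTopors 1 and 1.42 TPM in shTopors 2. Of the 6 tested, Mirlet7a-1, Mirlet7c-1 and Mirlet7c-2 were lower without overlap and Mirlet7f-1 was higher, in a table where 35.2% of tested genes were lower and 14.6% higher in that way. Such values can come from long precursor transcripts and do not measure mature let-7.

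Genes that make, trim or block let-7 showed no call. Of 18 listed genes, 15 were tested, none passed in limma, and the median log2 difference was -0.22, close to the -0.18 of all tested genes. With an unadjusted p under 0.05, Tarbp2, a partner of Dicer, was higher. Zcchc11, a uridyl transferase that LIN28 recruits to let-7 precursors, was lower, and both were named after their values were seen. That is 1 of 15 in each direction, beside 3.98% higher and 10.7% lower of all tested genes. Tarbp2 had 16.9 and 18.0 TPM (controls) against 28.5 and 26.5 TPM (knockdown). Zcchc11 had 21.6 and 25.6 TPM (controls) against 9.59 and 15.03 TPM (knockdown). Xpo5, which exports precursors from the nucleus, had 38.6 and 46.0 TPM (controls) against 52.2 and 47.0 TPM (knockdown). Without overlap, 8 of the 15 were lower and 2 higher, beside 35.2% lower and 14.6% higher of all tested genes.

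Known let-7 targets other than the members went in both directions. Of 36 listed, 31 were tested and none passed in limma. An unadjusted p under 0.05 held for 2 as higher and 4 as lower, beside 3.98% and 10.7% of all tested genes. The median log2 difference was -0.18, or -0.32 without shTopors 1 and 0.05 without shTopors 2. The higher ones were Nras, a RAS GTPase gene, and Aurkb, a mitotic kinase gene. The lower ones were Ccnd2, a D cyclin gene, Igf1r, the IGF1 receptor gene, Plagl2 and Zfp322a, and all but Ccnd2 of these 6 were named after their values were seen. Nras had 49.6 and 44.8 TPM (controls) against 80.5 and 78.8 TPM (knockdown). Igf1r had 78.9 and 78.3 TPM (controls) against 45.9 and 33.3 TPM (knockdown). Ccnd1, the target with the highest level and a D cyclin gene, had 783 and 520.0 TPM (controls), against 968 TPM in shTopors 1 and 266 TPM in shTopors 2.

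Over all tested genes, those with and without a let-7 seed match had medians close together. The median log2 difference was -0.22 for 1220 genes with at least 1 match and -0.17 for 9816 genes with none. Genes with a match have longer 3' UTRs, with a median of 2340.5 against 1049 bases, and the median log2 difference fell with 3' UTR length. In 5 bins of genes by that length, a split added after seeing the data, the medians were 0.05 and -0.002 (shortest), -0.10 and -0.13, -0.21 and -0.21, -0.23 and -0.25, and -0.26 and -0.29 (longest), for genes with and without a match in turn. The 8-base match gave a median of -0.20 over 442 genes.

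**Figure D4:**
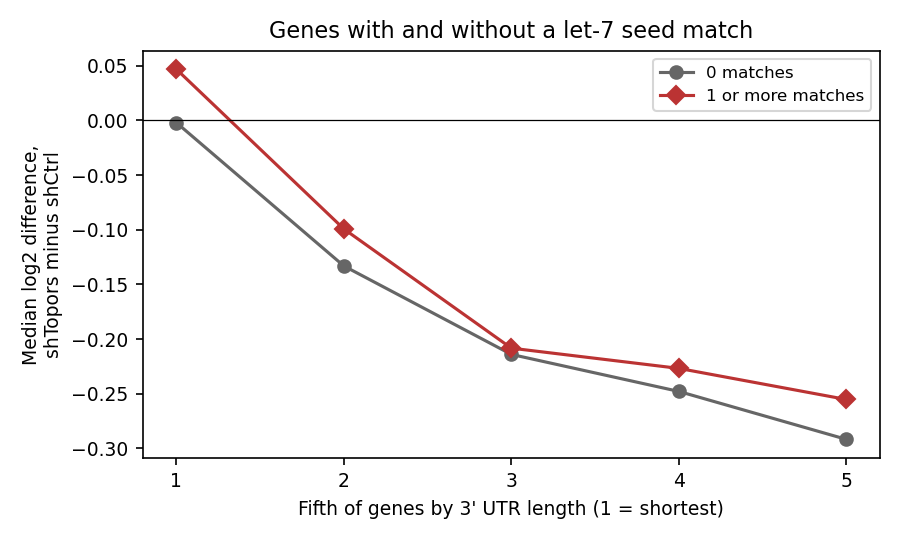
Median log2 difference of shTopors minus shCtrl (y axis) for tested genes without (circles) and with (diamonds) a let-7 seed match, in 5 bins by the length of the longest annotated 3' UTR (x axis, 1 is the shortest). Both lines go down with length, and the medians of genes with and without a match lie within 0.05 of each other in every bin.

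The 10 genes with 4 or more matches had a median log2 difference of -0.04. Besides the 3 members they are Nr6a1, Nudt12, Trim6, D10Wsu102e, Hic2, Mettl6 and Zbtb37, named after their values were seen. Nr6a1, a germ cell nuclear receptor gene with 8 matches, had 3.53 and 3.75 TPM (controls) against 4.48 and 4.29 TPM (knockdown). Hic2, a transcriptional repressor gene with 4 matches, had 2.50 and 2.66 TPM (controls) against 1.34 and 1.58 TPM (knockdown). Trim6, with 6 matches, had 15.04 and 17.1 TPM (controls) against 11.6 and 22.3 TPM (knockdown). Leaving out Hmga2, which was chosen for its difference, the log2 differences of these genes ran from -0.54 (Hic2) to 0.36 (Lin28b).

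Other fetal liver and oncofetal genes gave no call. Of 25 listed, 12 were tested, none passed in limma, and the median log2 difference was -0.03, running from -0.09 to 0.12 with 1 library left out. With an unadjusted p under 0.05, Pkm, a glycolytic pyruvate kinase gene, and Aldoa, an aldolase gene, were higher. Sox9, a bile duct and progenitor factor, and Cd24a, a progenitor surface marker, were lower, and both were named after their values were seen. These are 2 higher and 2 lower of 12, beside 3.98% higher and 10.7% lower of all tested genes. Pkm had 720.2 and 557 TPM (controls), against 2876 TPM in shTopors 1 and 878 TPM in shTopors 2. Sox9 had 76.8 and 91.2 TPM (controls) against 26.9 and 42.1 TPM (knockdown). Afp, the alpha-fetoprotein gene and the classical oncofetal marker, picked once its level was known, had 2.30 and 2.52 TPM (controls) against 1.45 and 4.18 TPM (knockdown). Dlk1, Meg3, Sall4, Spink1 and Bex2 were listed at 0 in every library, H19 stayed at or below 0.0249 TPM and Igf2, the mRNA that names the IGF2BP family, at or below 0.0217 TPM.

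Repressors of the fetal programme and factors of adult hepatocytes gave a median log2 difference of -0.67 over 8 tested genes of 9 listed, beside -0.18 for all tested genes. The list's median was -0.26 both with no filter on low values and with a filter at 5 TPM, so its distance from all genes depends on which of these few genes are kept. None passed in limma, and 4 of the 8 had an unadjusted p under 0.05 as lower, beside 10.7% of all tested genes. They were Zbtb20, Foxa1, Cebpa and Onecut1, the last 3 named after their values were seen. Zbtb20, a repressor of Afp, had 44.9 and 63.6 TPM (controls) against 18.1 and 34.3 TPM (knockdown). Zhx2, another repressor of Afp that also acts on Gpc3, was named after its values were seen. It had 11.4 and 11.3 TPM (controls) against 11.2 and 12.7 TPM (knockdown). Hnf4a was given above, and its groups overlapped.

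Families beside the members showed no call either. Of 18 other HMG genes, 13 were tested, none passed in limma and none had an unadjusted p under 0.05, with a median log2 difference of -0.23, or -0.46 without shCtrl 1 and 0.04 without shCtrl 2. Hmgn1, a nucleosome-binding protein gene, had 170.4 and 211 TPM (controls) against 73.8 and 203 TPM (knockdown). Of 16 m6A writers, erasers and other readers, all were tested and none passed in limma. An unadjusted p under 0.05 held for 1, as lower, beside 10.7% of all tested genes. That was Fto, an m6A eraser gene named after its values were seen, with 33.5 and 34.5 TPM (controls) against 23.8 and 14.5 TPM (knockdown). The m6A list had a median log2 difference of -0.15, or -0.31 without shCtrl 1 and 0.04 without shCtrl 2. Of 12 other glypicans and heparan sulfate carriers, 6 were tested, none passed in limma, and the median log2 difference was -0.13, or -0.48 without shTopors 1 and 0.18 without shTopors 2. Sdc2, a syndecan gene, had the single unadjusted p under 0.05 of that list, as lower, with 39.1 and 61.4 TPM (controls) against 15.5 and 30.8 TPM (knockdown). Gpc4, the glypican with the highest mean level here, had 11.8 and 15.5 TPM (controls) against 13.4 and 11.1 TPM (knockdown), and was named after its values were seen.

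**Figure D5:**
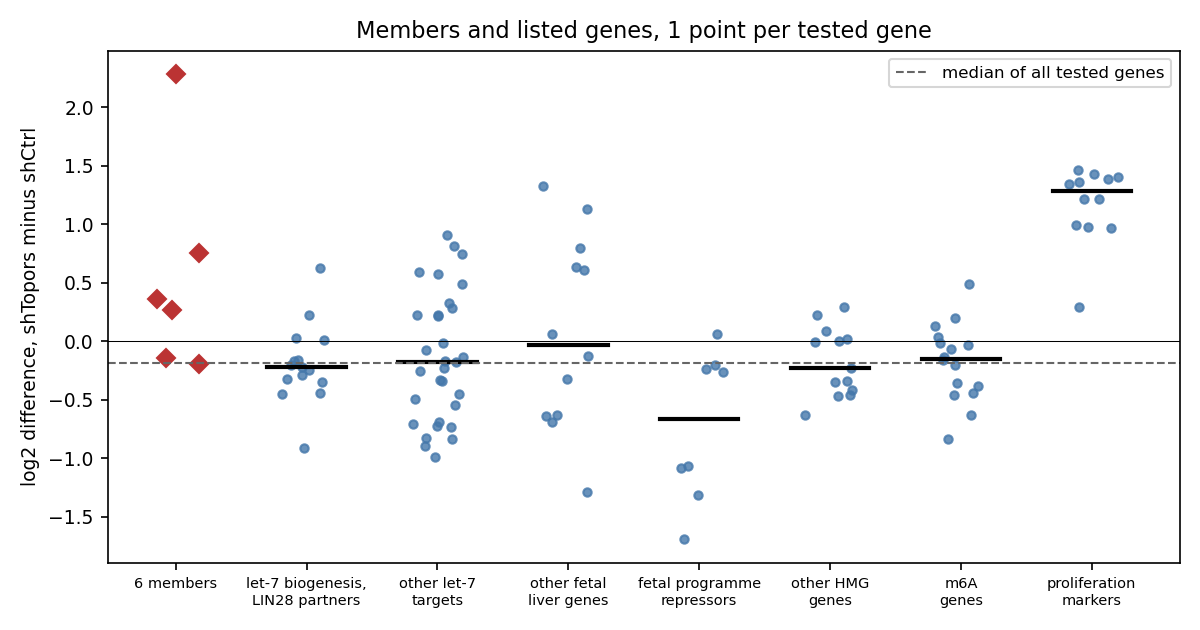
log2 difference of shTopors minus shCtrl (y axis) for the 6 tested members (diamonds) and the tested genes of 7 lists (circles), with a black line at each list's median and a dashed line at the median of all tested genes, -0.18. Hmga2 lies at 2.29, above every listed gene drawn, and the medians of the let-7 and HMG lists lie close to the dashed line.

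Hepatocyte markers had a median log2 difference of -0.42 over 14 tested genes of 18, with none past limma's threshold. Its sign rests on a single library, since it was -0.76 without shTopors 1 and 0.18 without shTopors 2. At an unadjusted p under 0.05, 4 of the 14 were lower and none higher, beside 10.7% lower and 3.98% higher of all tested genes. Ttr, Trf and Apob, the 3 with the highest mean level, were among the lower. Bile duct markers had a median of -0.36 over 6 tested genes of 7, with none past limma's threshold. Of the 6, 2 had an unadjusted p under 0.05 as lower, among them Sox9, given above. That median was -0.10 without shCtrl 2 and -0.98 without shTopors 2. Krt19, a bile duct keratin gene on the bile duct and fetal lists, had 341 and 296 TPM (controls), against 1396 TPM in shTopors 1 and 345 TPM in shTopors 2. The part of hepatocyte and bile duct markers in the levels of the HMGA and IGF2BP genes was not tested.

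The genes whose pattern over the 4 libraries was most like that of Hmga2 were sought among 9281 protein-coding genes whose mean reached 5 TPM, by the Euclidean distance between centred log2(TPM + 1) values. They were F2rl1 (distance 0.299), Areg (0.461), Slc4a11 (0.537), Nid1 (0.565) and Lamb1 (0.567). F2rl1, a protease-activated receptor gene, had 2.26 and 1.66 TPM (controls) against 20.2 and 6.42 TPM (knockdown). Areg, the amphiregulin gene, had 3.17 and 3.26 TPM (controls) against 27.6 and 9.30 TPM (knockdown). Lamb1, a laminin gene, had 3.11 and 3.48 TPM (controls) against 22.5 and 9.92 TPM (knockdown). Each of the 5 was chosen for this likeness, which rests on 4 values.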

How the data were processed

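The authors deposited a TPM value per gene for each of the 4 libraries. Named in the submitters' processing notes, with neither versions nor roles, are the build mm10 and the tools StringTie, HTSeq, HISAT2 and DESeq2. Which of them wrote the TPM is not stated there. Of 52633 rows, 3 repeated an identifier and were summed, and 52483 of 52630 identifiers were found in GENCODE M21. Depth is unknown, so no counting interval was computed.

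The test was that of limma 3.58.1 (R 4.3.3, with a mean-variance trend) on log2(TPM + 1), for genes whose mean reached 1 TPM, with Benjamini-Hochberg adjustment over all of them. Fold changes on this scale understate low genes. The fit was tested on data simulated with the same spread in both groups. Here the log2 difference between libraries had an SD of 0.688 (knockdown) and 0.429 (controls), so that test does not cover this unequal spread. Members and lists were chosen with earlier results of these data known. All members are named; of each list, genes past the threshold or up to 3 with the highest mean TPM, and genes at 0 in a group. The likeness to Hmga2 takes 5 genes without provisional symbols. Alternatives were pseudocounts 0.1 and 5, filters, scalings, variance models, leaving out each library and a replicate block; 3' UTR length, unadjusted p and non-overlap counts were added after seeing the data. Other tools were Python 3.11.15, pandas 2.3.3 and matplotlib 3.10.9. Some listed genes are not reported here by name.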

Additional observations from a re-analysis of the deposited data

How the results depend on the processing

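Hmga2 kept a positive log2 difference under all alternatives run, but it was picked for its rise, so this describes the choice and is no check. Past the threshold, 1 gene was higher and 4 lower over all genes. With no filter on low values both counts were 0. They were 0 and 1 when genes under a mean of 5 TPM were dropped, under quantile normalization, under scaling by median of ratios and when rescaled over protein-coding nuclear genes. With 1 library left out they ran from 0 to 687 higher and from 0 to 1479 lower. They were 246 and 901 without shTopors 1, 687 and 1479 without shTopors 2, both 0 without shCtrl 2, and 1 and 3 without shCtrl 1. With 1 library left out the log2 difference ran from 0.17 to 1.34 for Hmga1, from -0.31 to 1.03 for Lin28b, from -0.87 to 0.48 for Igf2bp1, from -0.59 to 0.30 for Igf2bp2 and from -0.0107 to 0.54 for Igf2bp3. That of Igf2bp2 was 0.0375 when scaled by median of ratios and 0.00837 when quantile normalized, which moved the median of all genes from -0.18 to -0.02 and -0.01. The cause of these changes was not tested.

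Libraries share replicate numbers, but no label says that a number marks a shared culture or day. With a replicate block 6 genes were higher and 27 lower, and none of the 5 tested members other than Hmga2 passed. The deviations of same-numbered libraries correlated with r = 0.199 over 13509 genes, which are not independent. Of 184 list medians under alternatives, 152 stayed within 1 SD of the libraries and 32 did not. The 152 include medians under the variance models and the replicate block, which leave every log2 difference unchanged and so could not move a median. Scaled by median of ratios, the medians of the let-7 target, fetal, glypican and m6A lists were above 0, at 0.004, 0.13, 0.01 and 0.03, beside -0.02 for all genes. The filter at 5 TPM left out Lin28b. TPM keeps no depth, so it cannot be said what depth limits for Lin28b and Gpc3.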
